A study of Mus musculus with 12 samples.

Results

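The TGF-β response of mesenchymal stem/stromal cells (MSCs) that had lost p38α (p38α∆ MSCs) was compared, gene by gene, with that of WT MSCs. The quantity described is a difference of differences on the log2 scale, (p38α∆ with TGF-β minus p38α∆) minus (WT with TGF-β minus WT), and it was obtained for 17097 genes from all 12 of the 12 arrays of the series. A positive difference means that the gene rose more, or fell less, in p38α∆ MSCs. A negative difference means that it rose less, or fell more.

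All cells came from mice that carried floxed Mapk14 alleles, the gene of p38α, and a tamoxifen-inducible Cre-ERT2 driven by the ubiquitin C promoter. The labels give the strain as FVB/NJ, whereas the methods of the study give C57BL/6J as the background of its mice. The MSCs were immortalized, and p38α∆ MSCs were made from them by incubation with 4-hydroxytamoxifen, whereas WT MSCs received vehicle, so both genotypes carried the floxed alleles and the Cre, and an effect of the drug itself cannot be told apart from the deletion. Cells were kept in 0.5% serum and left without TGF-β or given 5 ng/ml TGF-β for 20 h. The groups held 4 arrays for WT (numbered 1, 3, 4 and 4b), 3 for TGF-β-treated WT (1, 3 and 4), 2 for p38α∆ (1 and 3) and 3 for TGF-β-treated p38α∆ (1, 2 and 4). The study states that its experiments were repeated, but the sources used here do not tie the arrays of one group to separate cultures, so the p-values measure the spread between arrays, which may be technical.

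TGF-β binds a pair of receptor kinases that phosphorylate Smad2 and Smad3, which enter the nucleus with Smad4 and induce matrix, cytoskeletal and feedback genes. The same receptors also activate the kinase TAK1 and, through it, the stress-activated MAP kinases p38 and JNK, and p38α in turn restrains TAK1 through the adaptor TAB1. JNK phosphorylates Jun, which pairs with Fos proteins to form AP-1, a factor that binds many TGF-β-induced promoters together with Smad proteins. In many cell types TGF-β also holds cells in G1, and MSCs are known for responding to it with matrix synthesis and a contractile program.

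The 4 arrays numbered 1, 1 in each group, stood apart from the rest. Deviations from the group means of arrays that share a number had correlations between 0.07 and 0.86 in 14 pairs (median 0.72), against −0.85 to 0.78 in the other 39 pairs (median −0.45). Deviations cancel within each group, so the negative values are partly set in advance. Pairs of number 4 reached only 0.07 to 0.36, and treated p38α∆ array 2 had 0.66 to 0.78 with the arrays numbered 3. The pairing by number thus rests mainly on number 1 against the rest. Each difference is given with the number as a random block. Beside it are its value within the arrays numbered 1 and a value from numbers 3 and 4, which share no array with the first. The latter is the genotype difference of the treated arrays numbered 4 minus that of the untreated arrays numbered 3. It thus rests on 1 array in each group, and the other arrays numbered 3 and 4 do not enter it. It contains no TGF-β response within a number, because p38α∆ MSCs have no untreated array 4 and no treated array 3. The MSC and pericyte markers had a median log2 level of 6.1 over the 8 measured, of which 3 (Thy1, Mcam and Eng) had a mean under 5. The endothelial, leukocyte and epithelial markers had medians of 3.69, 3.5 and 4. No value of the 8 endothelial markers exceeded 4.89. Mapk14 stood at 5.29, 5.35, 5.33 and 5.0 in WT, 5.24, 5.70 and 6.01 in treated WT, 4.99 and 5.08 in p38α∆, and 5.16, 5.76 and 5.89 in treated p38α∆ MSCs, with overlap between the genotypes. Its responses differed by 0.06 (SE 0.27) at the probeset used, with a level of 5.4. At its most highly expressed probeset, with a level of 9.2, they differed by 0.20 (SE 0.11). Because the position of its probesets relative to the deleted part is not given in the sources used here, they check no label.

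No gene reached an adjusted p of 0.05 in the genotype difference (0%), and the smallest adjusted p in limma was 0.218, for Maff. At an unadjusted p of 0.05, 919 genes passed, or 5.38% of those tested, of which 427 (2.5%) had a more positive and 492 (2.88%) a more negative response in p38α∆ MSCs. The differences of single genes below are thus measurements with their intervals, none of which passed the correction over all genes. Counts of list members that passed an unadjusted p of 0.05 are to be read beside the shares of 2.5% and 2.88% over all genes. The median difference over all genes was −0.01 with an SD of 0.23, and 48.5% of genes lay above 0. The median 95% interval reached 0.37 to either side, and 10488 genes (61.3%) had an interval that lay wholly within 1.5-fold (0.585 on the log2 scale) in either direction.

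The responses of both genotypes were alike in direction. TGF-β raised 771 genes (4.51%) and lowered 910 (5.32%) in WT MSCs, and it raised 581 (3.4%) and lowered 842 (4.92%) in p38α∆ MSCs, which had 2 untreated arrays. Of the 970 genes called in both, 969 had the same sign and 1, Mcm10, had opposite signs. Across genes, which are not independent replicates, the responses correlated with r = 0.75. For the mean of both responses, 1166 genes rose (6.82%) and 1693 fell (9.9%). Of these 2859 genes, 326 (11.4%) responded more in p38α∆ MSCs at an unadjusted p of 0.05 and 40 (1.4%) responded less. Of those that did not pass, 1439 (50.3% of all) had an interval of the difference within 1.5-fold, which is called bounded below, and 1054 (36.9%) had an interval too wide to be placed. A further 23 genes with an interval within 1.5-fold are counted among those that passed. Among the raised genes 130 responded more and 16 less, and among the lowered genes 196 responded more and 24 less. The estimate of the unweighted mean correlates with that of the difference at 0.27 by the design of the groups. With a weighted mean, which has no such correlation and was added after the data were seen, 277 genes (9.34%) responded more and 53 (1.79%) less of 2966. The estimates within number 1 and from numbers 3 and 4 correlated across genes with r = 0.34, and with r = 0.42 over the 8039 genes with a mean log2 value of at least 5.

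**Figure D1:**
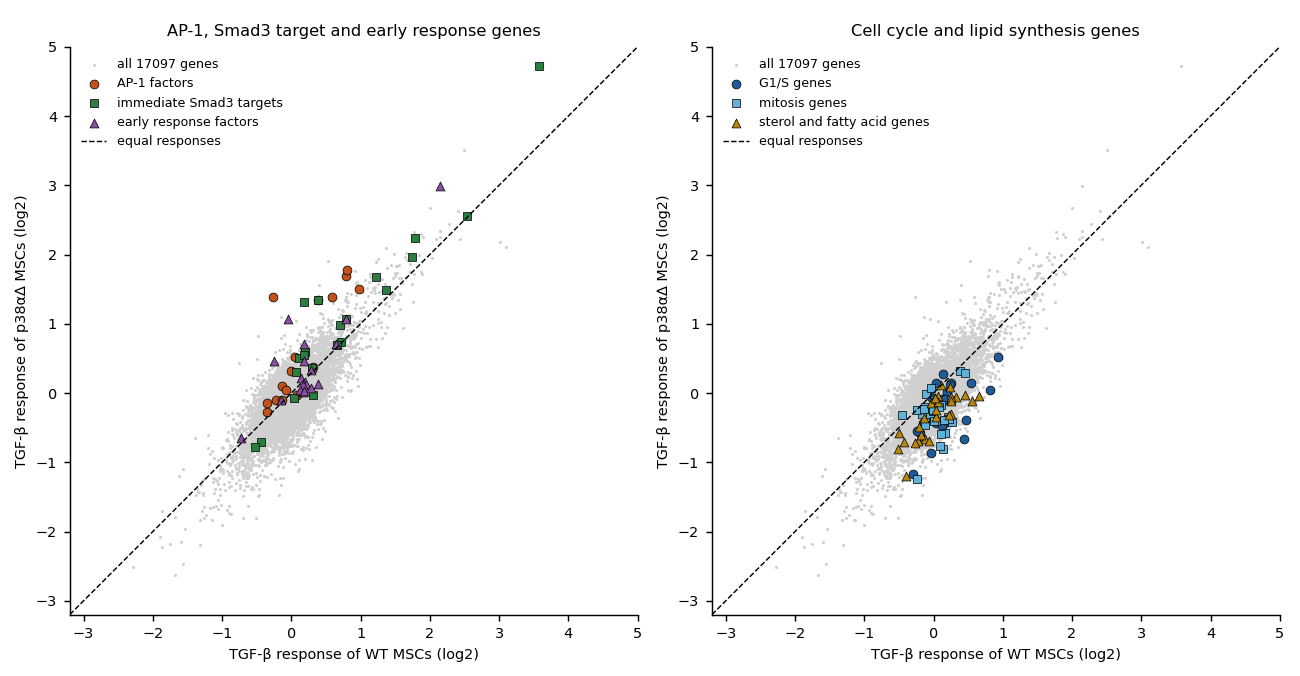
Each grey point is 1 of 17097 genes, placed by its TGF-β response in WT MSCs (x axis) and in p38α∆ MSCs (y axis), both as log2 differences from untreated cells of the same genotype, with coloured symbols for 3 functional lists in each panel and a dashed line for equal responses. Most genes follow the line (r = 0.75), with AP-1 factors and Smad3 targets mostly above it (left) and cell cycle and lipid synthesis genes mostly below it (right).

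**Figure D2:**
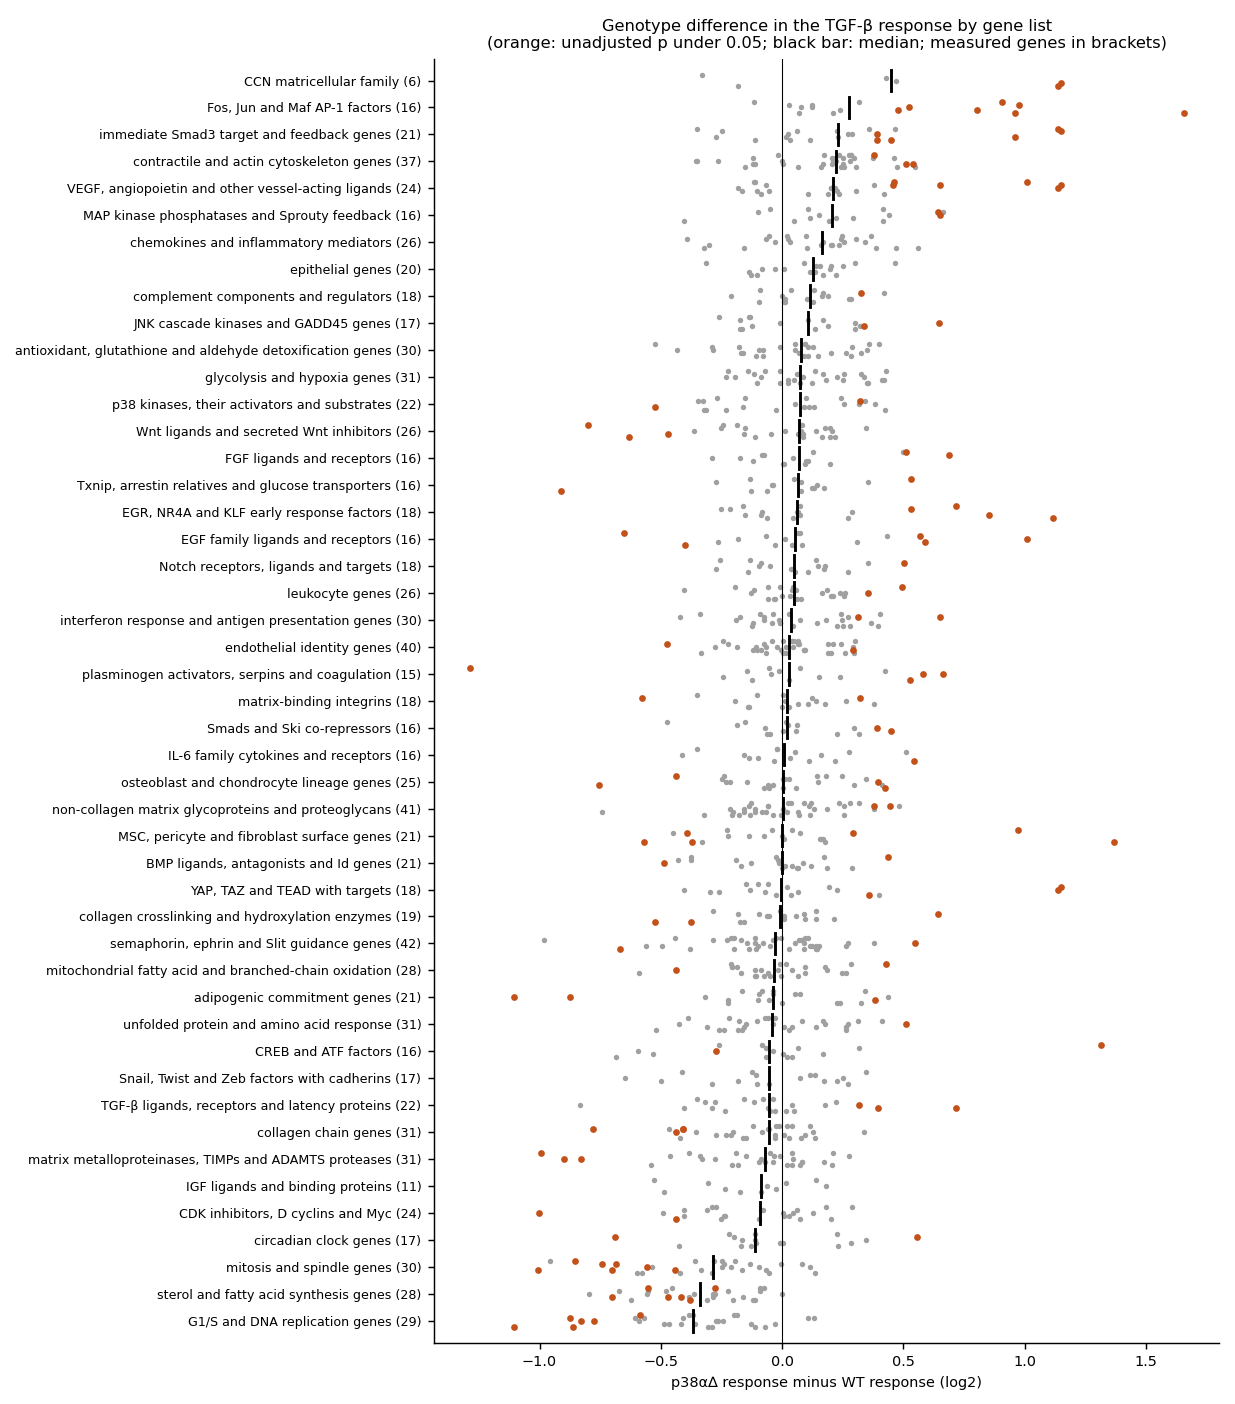
Each point is a gene of 1 of 47 functional lists, placed by its genotype difference in the TGF-β response (log2), with lists ordered by their median (black bar) and genes past an unadjusted p of 0.05 in orange. The CCN family and the AP-1 factors lie at the top, with medians of 0.45 and 0.28, and G1/S genes at the bottom, with a median of −0.37.

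The measured responses of the AP-1 factors were larger without p38α. Of 16 measured members of the Fos, Jun, Maf and related families, 15 had a difference above 0 and 7 passed an unadjusted p of 0.05, all positive, with a median of 0.28 against −0.01 over all genes. The median response of the list was 0.02 in WT and 0.34 in p38α∆ MSCs. Within number 1 the median difference was 0.28, and from numbers 3 and 4 it was 0.55. It ranged from 0.17 without p38α∆ array 3 to 0.57 without TGF-β-treated p38α∆ array 1. On each array, the median of the list relative to the mean of all arrays was 0.41, 0.41 and 0.42 in the 3 TGF-β-treated p38α∆ arrays, and the highest of the other 9 arrays stood at 0.11.

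Maff encodes a small Maf protein that lacks a transactivation domain and pairs with other leucine zipper factors. Its log2 value was 6.0, 5.91, 5.87 and 5.87 on the WT arrays, 6.74, 6.61 and 6.80 on the treated WT arrays, 5.83 and 5.96 on the p38α∆ arrays, and 7.67, 7.91 and 7.57 on the treated p38α∆ arrays, in the order of the array numbers given above, which is kept below. The treated groups did not overlap, while the untreated groups did. Maff rose by 0.80 in WT and by 1.77 in p38α∆ MSCs, a difference of 0.97 (SE 0.14, 95% interval 0.68 to 1.27, unadjusted p = 1.28e-05, adjusted p = 0.218 in limma), with 1.10 within number 1 and 0.71 from numbers 3 and 4. Fos, the founding Fos family member, stood at 5.18, 5.81, 5.59 and 5.40 in WT, 4.69, 5.45 and 5.53 in treated WT, 4.49 and 5.57 in p38α∆, and 6.19, 6.70 and 6.31 in treated p38α∆ MSCs. Every treated p38α∆ array lay above every other array. Its response was −0.26 in WT, which did not pass the test, and it rose by 1.39 in p38α∆ MSCs, a difference of 1.66 (SE 0.28, interval 1.05 to 2.27, unadjusted p = 7.43e-05, adjusted p = 0.456).

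Jun, the partner of Fos and the substrate that gave JNK its name, rose in both genotypes, by 0.78 and by 1.69 (difference 0.91, SE 0.16, unadjusted p = 0.000136). Its values were 6.57, 6.74, 6.60 and 6.61 in WT, 7.33, 7.28 and 7.57 in treated WT, 6.39 and 6.74 in p38α∆, and 8.06, 8.48 and 8.38 in treated p38α∆ MSCs, so that both treated groups lay above the untreated ones and did not overlap each other. Fosb rose by 0.59 and 1.39 (difference 0.80, SE 0.21), Fosl1 by 0.97 and 1.5 (difference 0.53, SE 0.20), and Junb had responses of 0.39, not called, and 1.35, called (difference 0.96, SE 0.30). For Junb the untreated p38α∆ arrays lay low, at 5.83 and 5.35 against 5.84 to 6.79 in WT, while the treated groups stood at 6.53 to 6.70 and at 6.77 to 7.04. Creb5, a leucine zipper factor of the CREB and ATF list that can pair with Jun, had responses of −0.49, not called, and 0.83, called (difference 1.31, SE 0.30, 0.88 within number 1 and 1.68 from numbers 3 and 4). Of the other 15 members of that list, 6 lay above 0, none passed in the positive direction, and the median was −0.07. Atf7, which can also pair with Jun proteins, passed in the negative direction (difference −0.27, SE 0.10). Creb3l2, a membrane-bound transcription factor of the secretory pathway, rose by 0.98 and 1.04, a difference of 0.06 (interval −0.23 to 0.36).

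The early response factors of the EGR, NR4A and KLF families divided. Of 18, 11 lay above 0, 4 passed an unadjusted p of 0.05, all positive, and the median was 0.06 (−0.12 within number 1). Egr1, a zinc finger factor induced through serum response factor, stood at 9.61, 10.34, 10.53 and 10.38 in WT, 9.98, 10.02 and 10.36 in treated WT, 9.67 and 10.11 in p38α∆, and 10.98, 11.10 and 11.00 in treated p38α∆ MSCs. The last group lay above all other arrays. Its response was −0.05 in WT, not called, and a rise of 1.06 in p38α∆ MSCs (difference 1.12, SE 0.24, unadjusted p = 0.000668, adjusted p = 0.548). Ier3, a stress-induced survival protein, had responses of −0.26 and 0.46, neither called (difference 0.72, SE 0.17). Ier2 had a called rise in p38α∆ MSCs (0.18 and 0.71, difference 0.53, SE 0.18). Egr2, which is related to Egr1, was among the most strongly induced genes in both genotypes and rose by 2.15 and 3.00 (difference 0.85, SE 0.35, 0.61 within number 1, 0.35 from numbers 3 and 4, and 0.51 without p38α∆ array 1). By contrast Srf, the serum response factor itself, rose by 0.64 and 0.71 (difference 0.07, interval −0.27 to 0.40), and Btg2, an antiproliferative early gene, fell by 0.73 and 0.66 (difference 0.07, interval −0.39 to 0.54).

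The promoters of Maff and Egr2 are shown as picked examples that hold a motif named below. Both genes rose in both genotypes and more so in p38α∆ MSCs, as did other genes described here. The sequences are from RefSeq (GRCm38.p6), run from 250 bases before to 50 bases after a transcription start, and were chosen, where a gene has several, as the one that holds the motif in capitals. In Maff (chr15:79347270-79347569, plus strand, 1 of 3 promoters in the table) the capitals mark a CRE, TGACGTCA, the palindrome bound by CREB and ATF proteins, which starts 29 bases before the transcription start. In Egr2 (chr10:67537316-67537615, plus strand, 1 of 5) they mark a CArG box, the binding motif of serum response factor, 72 bases before it.
Maff: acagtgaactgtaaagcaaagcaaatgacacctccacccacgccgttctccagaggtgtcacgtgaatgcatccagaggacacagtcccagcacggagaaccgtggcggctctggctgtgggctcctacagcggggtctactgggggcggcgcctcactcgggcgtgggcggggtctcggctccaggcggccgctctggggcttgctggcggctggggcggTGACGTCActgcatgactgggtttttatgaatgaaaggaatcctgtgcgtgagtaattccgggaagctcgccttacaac
Egr2: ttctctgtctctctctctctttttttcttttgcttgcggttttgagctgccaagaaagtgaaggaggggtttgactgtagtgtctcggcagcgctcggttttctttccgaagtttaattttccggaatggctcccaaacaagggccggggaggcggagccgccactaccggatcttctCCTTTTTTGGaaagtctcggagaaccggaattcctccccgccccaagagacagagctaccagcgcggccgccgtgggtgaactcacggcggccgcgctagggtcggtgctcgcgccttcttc
Searched on both strands, the CRE was held by 1.79% and the CArG box by 1.63% of 32851 RefSeq promoters. Of the 17 promoters of early response factors, 5 (29.4%) held a CArG box, and 4 of these 5 are of Egr2. Of the 17 promoters of AP-1 factors, 1 held the CRE, that of Maff, and none held the AP-1 motif TGANTCA, which 7.81% of all promoters held. A match of letters is not a bound site.

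**Figure D3:**
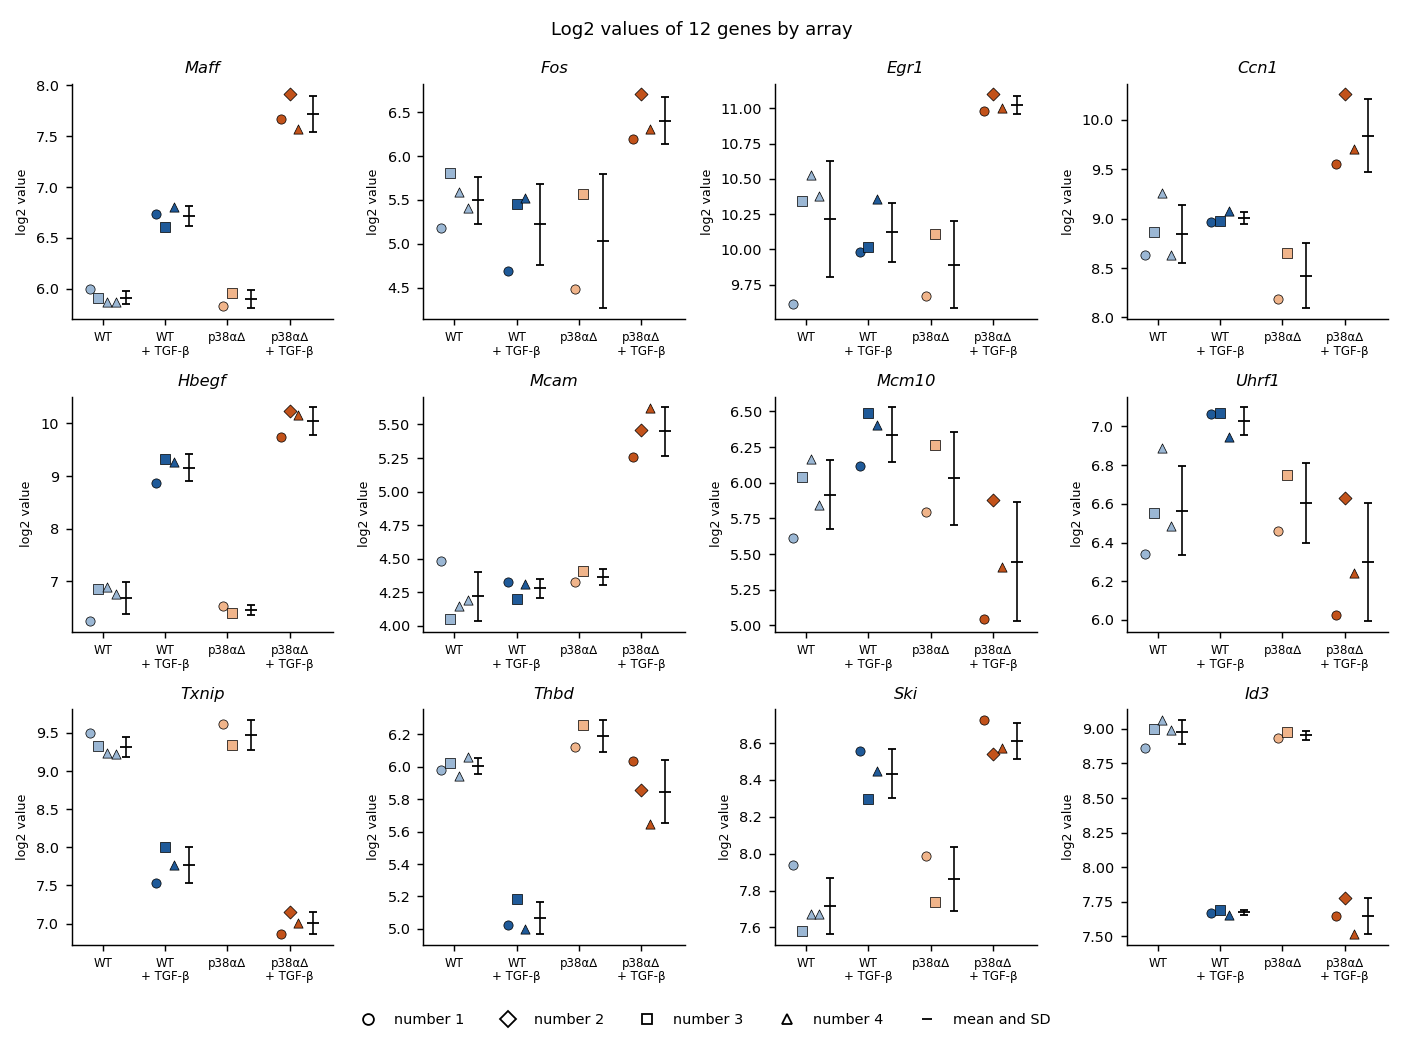
Each panel is a gene and each point an array, with the log2 value on the y axis, the 4 groups on the x axis, symbols for the array number, and a bar with whiskers for the mean and SD of the group. For Maff, Fos and Egr1 the 3 treated p38α∆ arrays are the highest, whereas for Ski and Id3 the treated groups of both genotypes overlap.

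Among direct targets of Smad3, the response was larger for part of the list and alike for another part. Of 21 immediate Smad3 target and feedback genes, 10 were raised and 1 lowered in WT, and 14 were raised and 2 lowered in p38α∆ MSCs. The median response was 0.39 in WT and 0.74 in p38α∆ MSCs. The difference lay above 0 in 17 of 21, passed an unadjusted p of 0.05 in 6, all positive, and had a median of 0.23 (0.12 within number 1 and 0.21 from numbers 3 and 4). Without TGF-β-treated p38α∆ array 1 the median was 0.38.

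Ccn2, the connective tissue growth factor, had the highest response of the list. Its values were 3.60, 3.35, 3.68 and 3.96 in WT, 6.97, 7.61 and 7.04 in treated WT, 4.10 and 4.28 in p38α∆, and 8.72, 9.22 and 9.01 in treated p38α∆ MSCs. The p38α∆ arrays lay above the WT arrays both with and without TGF-β. The rise was 3.57 in WT and 4.72 in p38α∆ MSCs (difference 1.15, SE 0.27, unadjusted p = 0.00106, adjusted p = 0.584). Ccn1, a secreted matricellular protein of the same family, stood at 8.63, 8.86, 9.26 and 8.63 in WT, 8.96, 8.98 and 9.08 in treated WT, 8.19 and 8.66 in p38α∆, and 9.56, 10.26 and 9.70 in treated p38α∆ MSCs. Its treated p38α∆ arrays were the highest, with responses of 0.18, not called, and 1.31, called (difference 1.14, SE 0.26). Of the 6 CCN genes, 4 lay above 0, with a median of 0.45, which was 0.22 without p38α∆ array 1 and 0.02 when each gene was represented by its most highly expressed probeset. Ccn4 rose by 1.87 and 2.30 (difference 0.43, SE 0.29), and Ccn5, which lacks a domain that its relatives share, fell by 1.12 and 1.45 (difference −0.33, SE 0.25).

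The inhibitory arm of the pathway was not uniform. Smad7, which recruits ubiquitin ligases to the receptor, rose by 1.22 and 1.67 (difference 0.45, SE 0.16), and Smurf1, 1 of those ligases, had responses of 0.20, not called, and 0.59, called (difference 0.39, SE 0.13). Ski, a co-repressor that binds Smads, stood at 7.94, 7.58, 7.67 and 7.67 in WT, 8.56, 8.30 and 8.45 in treated WT, 7.99 and 7.74 in p38α∆, and 8.72, 8.54 and 8.57 in treated p38α∆ MSCs. The treated groups overlapped, and the rises of 0.71 and 0.74 differed by 0.02 (interval −0.23 to 0.28). Its relative Skil rose by 2.54 and 2.55, but with an interval of −0.89 to 0.93 a difference of either sign is within the error. Bhlhe40, a transcriptional repressor, rose by 1.74 and 1.97 (difference 0.23, interval −0.05 to 0.52), and Tgfbi, a secreted matrix protein named after its induction by TGF-β, by 1.36 and 1.48 (difference 0.12, interval −0.25 to 0.49). Smad3 itself fell by 1.02 and 1.09 (difference −0.07, interval −0.55 to 0.41), and the receptor gene Tgfbr2 fell by 0.49 and 0.53 (difference −0.04, interval −0.45 to 0.37). Acvr1, which encodes a type I receptor of the family, rose by 0.61 and 0.63 (difference 0.01, interval −0.26 to 0.29). Among ligands and their binders, Tgfb3 rose by 1.14 and 1.46 (difference 0.32, SE 0.11) and Fstl3, a secreted inhibitor of activin, by 1.37 and 2.09 (difference 0.72, SE 0.29). The 22 ligands, receptors and latency proteins together had a median difference of −0.05, with 3 passing, all positive. The last of these was Acvrl1, a type I receptor known from endothelium, at a probeset with a low level of 3.3 (difference 0.40, SE 0.16), and its most highly expressed probeset differed by 0.04. In the BMP branch, Id3, an inhibitor of helix-loop-helix factors and a BMP target, had values of 8.86, 9.0, 9.06 and 8.99 in WT, 7.67, 7.69 and 7.66 in treated WT, 8.93 and 8.98 in p38α∆, and 7.65, 7.78 and 7.51 in treated p38α∆ MSCs. The treated groups overlapped. It fell by 1.30 and 1.33 (difference −0.02, interval −0.28 to 0.24). Bmp4 fell by 1.17 and 1.66 (difference −0.49, SE 0.22), with −0.81 within number 1 and −0.07 from numbers 3 and 4, and Nbl1, a secreted BMP antagonist, differed by 0.44 (SE 0.17).

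The feedback genes of the MAP kinases showed the same direction as AP-1. Of 16 phosphatases and Sprouty proteins, 13 lay above 0, 2 passed, both positive, and the median difference was 0.21, with 0.03 within number 1 and 0.27 from numbers 3 and 4. The 2 were Dusp10, a phosphatase of JNK and p38 (responses −0.28 and 0.37, neither called, difference 0.65, SE 0.16), and Dusp14 (0.27, not called, and 0.91, called, difference 0.64, SE 0.18). Dusp6, a phosphatase of ERK, rose by 0.94 and 1.61 (difference 0.66, SE 0.38), and Spred2, an inhibitor of Ras signalling, by 0.62 and 0.57 (difference −0.05, interval −0.41 to 0.31). Another Spred2 probeset, at about the same level, differed by 0.30 (SE 0.12), and 1 with a level of 7.7 by −0.09. When all 45037 probesets were tested instead of 1 a gene, 3 passed an adjusted p of 0.05, and 1 of them belongs to Dusp8, another phosphatase of JNK and p38, which was chosen for mention after its values were seen. That probeset stood at 3.89, 4.35, 4.29 and 4.36 in WT, 4.39, 4.35 and 4.59 in treated WT, 4.38 and 4.42 in p38α∆, and 6.04, 6.10 and 6.10 in treated p38α∆ MSCs (difference 1.40, SE 0.15, adjusted p = 0.0451 in limma). A second Dusp8 probeset differed by 1.12, and the third, which stands for the gene in the counts above, by 0.19. The other 2 probesets have no gene symbol in the platform table. For the kinases, the 22 genes of the p38 module had a median of 0.07, with 1 passing in each direction, and the 17 of the JNK module 0.11, with 2 passing, both positive. In the first, Map2k3, a kinase that activates p38, differed by 0.32 (SE 0.15) and Mknk1, a kinase of the initiation factor eIF4E, by −0.53 (SE 0.23), which was −0.21 at its most highly expressed probeset. In the second, Map3k4, a kinase upstream of JNK and p38, differed by 0.34 (SE 0.12) and Mapk8ip3, a JNK scaffold, by 0.65 (SE 0.25), or by 0.38 at its most highly expressed probeset. Mapkapk2, the p38 substrate kinase MK2, rose by 0.48 and 0.73 (difference 0.26, interval −0.04 to 0.55), and Map2k6, a kinase that activates p38, fell by 1.62 and 1.19 (difference 0.42, SE 0.29). Gadd45b, an activator of MAP kinase kinase kinases, rose by 1.53 and 1.83 (difference 0.30, SE 0.23).

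Secreted factors that act on vessels formed a list in which 6 of 24 passed, all positive, 16 lay above 0 and the median was 0.21, with 0.21 within number 1 and 0.27 from numbers 3 and 4. Ccn1 and Ccn2 belong to it. Hbegf, a heparin-binding ligand of the EGF receptor, stood at 6.24, 6.85, 6.89 and 6.76 in WT, 8.86, 9.33 and 9.27 in treated WT, 6.52 and 6.39 in p38α∆, and 9.74, 10.23 and 10.16 in treated p38α∆ MSCs. The untreated groups overlapped and the treated ones did not. It rose by 2.50 and 3.51 (difference 1.01, SE 0.21, unadjusted p = 0.000502, adjusted p = 0.548), with 0.60 within number 1 and 1.35 from numbers 3 and 4. Angptl4, an angiopoietin-like inhibitor of lipoprotein lipase, had responses of −0.26 and 0.39, neither called (difference 0.65, SE 0.15). Fgf18 rose by 1.25 and 1.94 (difference 0.69, SE 0.21), and Fgf21, a metabolic hormone of the FGF family, by 0.80 and 1.31 (difference 0.51, SE 0.18).

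For the best known angiogenic factor, Vegfa, the values were 8.69, 8.46, 8.29 and 8.07 in WT, 9.08, 9.15 and 9.09 in treated WT, 8.31 and 8.23 in p38α∆, and 9.11, 9.41 and 9.64 in treated p38α∆ MSCs. TGF-β raised it by 0.72 and 1.14, and the difference of 0.42 (SE 0.24, interval −0.10 to 0.95) did not reach an unadjusted p of 0.05. Pdgfc, a growth factor for mesenchymal cells, rose by 1.35 and 1.28 (difference −0.06, interval −0.58 to 0.45), Fgf2 rose by 2.14 and 2.25 with a wide interval (−0.67 to 0.88), and Angpt1, the ligand of the endothelial receptor Tie2, fell by 1.14 and 1.22 (difference −0.08, interval −0.64 to 0.47). Of 16 EGF family ligands and receptors, 3 passed in the positive and 2 in the negative direction. Errfi1, an inhibitor of the receptor, rose by 1.06 and 1.63 (difference 0.57, SE 0.17), whereas Lrig1, which lowers receptor levels, had a difference of 0.07 (interval −0.37 to 0.52). Its relative Lrig3 differed by 0.04 (interval −0.25 to 0.33) at the probeset used and by 0.39 (unadjusted p = 0.0065) at a more highly expressed one, so it was not settled. Egfr, the receptor itself, differed by −0.65 (SE 0.17, unadjusted p = 0.00301) at the probeset used, with a level of 4.9, and by 0.21 at its most highly expressed probeset, with a level of 7.1. Epgn, a ligand of that receptor with a level of 3.5, differed by −0.40 (SE 0.17).

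Surface and coagulation genes with vascular roles diverged from each other. Mcam, an adhesion molecule of pericytes and endothelium, stood at 4.48, 4.05, 4.14 and 4.19 in WT, 4.33, 4.20 and 4.31 in treated WT, 4.33 and 4.41 in p38α∆, and 5.26, 5.46 and 5.62 in treated p38α∆ MSCs. The 3 treated p38α∆ arrays were the highest, with a response of 0.07 in WT, not called, and a rise of 1.04 in p38α∆ MSCs (difference 0.97, SE 0.18, unadjusted p = 0.000163, adjusted p = 0.456). Nes, an intermediate filament gene of perivascular progenitors, had responses of 0.53, not called, and 1.90, called (difference 1.37, SE 0.40). Of the other 19 members of the MSC, pericyte and fibroblast list, 9 lay above 0, 1 passed in the positive and 3 in the negative direction, and the median was −0.04. The 3 were Vcam1, an adhesion molecule (difference −0.39, SE 0.13), Rgs5, a pericyte gene with a level of 3.7 (−0.37, SE 0.15), and Pdgfra, a PDGF receptor (−0.57, SE 0.23), which was named after its values were seen and had −0.27 without treated WT array 4. Cd44, a hyaluronan receptor, rose by 0.71 and 0.88 (difference 0.17, interval −0.15 to 0.49). Of 40 endothelial identity genes, 24 lay above 0, 1 passed in each direction, and the median was 0.03. The 1 with a positive difference was Cd34, the positive one of the other MSC genes too, which fell by 0.40 in WT and had a response of −0.11, not called, in p38α∆ MSCs (difference 0.29, SE 0.13). The negative one was Calcrl, a receptor for adrenomedullin, at −0.47 (SE 0.20) with a level of 3.2, and its most highly expressed probeset differed by −0.06.

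Thbd encodes thrombomodulin, which turns thrombin into an anticoagulant enzyme, and was 1 of the 40 genes with a smaller response. Its values were 5.98, 6.03, 5.94 and 6.06 in WT, 5.02, 5.18 and 5.00 in treated WT, 6.12 and 6.26 in p38α∆, and 6.04, 5.86 and 5.65 in treated p38α∆ MSCs. The treated groups did not overlap. It fell by 0.95 in WT, and its response of −0.29 in p38α∆ MSCs was not called (difference 0.66, SE 0.14, unadjusted p = 0.000584, adjusted p = 0.548). Plat, the tissue plasminogen activator, fell by 0.42 in WT and had a response of 0.11, not called, in p38α∆ MSCs (difference 0.53, SE 0.18). Plaur, the urokinase receptor, rose by 1.14 and 1.72 (difference 0.58, SE 0.16). F3, tissue factor, went the other way, with responses of −0.51, not called, and −1.80, called (difference −1.29, SE 0.41).

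In the contractile and actin cytoskeleton list, 28 of 37 genes lay above 0, with a median difference of 0.22 (0.24 within number 1 and 0.26 from numbers 3 and 4), which was 0.14 without p38α∆ array 3. The median response was −0.03 in WT and 0.16 in p38α∆ MSCs, and 3 genes passed an unadjusted p of 0.05, all positive. The shift was thus spread over many small differences. Zyx, the focal adhesion protein zyxin, had responses of 0.11, not called, and 0.62, called (difference 0.51, SE 0.20). Acta2, smooth muscle actin, differed by 0.54 (SE 0.24) at a probeset with a mean level of 4, while another Acta2 probeset with a level of 12 differed by 0.11, and the first value was 0.18 without p38α∆ array 1. Synpo2, an actin-binding protein of muscle with a level of 3.3, differed by 0.38 (SE 0.14), or by 0.06 at its most highly expressed probeset. Tns1, which links actin to integrins, rose by 1.04 and 1.25 (difference 0.20, SE 0.20), and its most highly expressed probeset differed by 0.30 (SE 0.12). Palld, an actin-bundling protein, rose by 0.37 and 0.59 (difference 0.22, interval −0.14 to 0.58). Of the 45 promoters of this list in the RefSeq table, 9 (20%) held a CArG box.

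Cell cycle genes were on the opposite side. Of 29 G1/S and DNA replication genes, 2 had a difference above 0, and 6 passed an unadjusted p of 0.05, all negative, with a median of −0.37 (−0.23 within number 1 and −0.46 from numbers 3 and 4). TGF-β raised 5 and lowered none of them in WT MSCs, and raised none and lowered 4 in p38α∆ MSCs. The median response was 0.13 in WT and −0.36 in p38α∆ MSCs. Of 30 mitosis and spindle genes, 3 lay above 0 and 7 passed, all negative, with a median of −0.29 (−0.12 within number 1 and −0.31 from numbers 3 and 4), which was −0.44 without p38α∆ array 1. The median differences between p38α∆ and WT were 0.03 and 0.05 in untreated cells, against −0.36 and −0.24 with TGF-β. Treated WT array 3 was the highest array in both lists, with medians of 0.44 and 0.61 relative to the mean of all arrays. On that scale, the mitosis list stood at −0.08 and 0.37 in the untreated p38α∆ arrays and at −0.06 to 0.13 in WT. In the G1/S list the treated groups overlapped, with treated p38α∆ array 2 at 0.01 and treated WT array 1 at −0.02.

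Mcm10, a replication initiation factor, was the gene with opposite called responses. It stood at 5.61, 6.04, 6.17 and 5.85 in WT, 6.12, 6.49 and 6.40 in treated WT, 5.80 and 6.26 in p38α∆, and 5.05, 5.88 and 5.41 in treated p38α∆ MSCs. The treated groups did not overlap. Mcm10 rose by 0.44 in WT and fell by 0.67 in p38α∆ MSCs (difference −1.11, SE 0.21, unadjusted p = 0.00021, adjusted p = 0.456), with −1.26 within number 1 and −1.21 from numbers 3 and 4. Uhrf1, which guides maintenance methylation of replicated DNA, stood at 6.34, 6.55, 6.89 and 6.49 in WT, 7.07, 7.07 and 6.94 in treated WT, 6.46 and 6.75 in p38α∆, and 6.03, 6.63 and 6.24 in treated p38α∆ MSCs. All treated WT arrays lay above all treated p38α∆ arrays. Uhrf1 rose by 0.47 in WT, and its response of −0.39 in p38α∆ MSCs was not called (difference −0.86, SE 0.21).

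The subunits of the MCM helicase gave responses of 0.19 and −0.40, neither called, for Mcm2 (difference −0.59, SE 0.17, but −0.16 with an unadjusted p of 0.594 at its most highly expressed probeset), and of −0.03, not called, and −0.86, called, for Mcm5 (difference −0.83, SE 0.25). In mitosis, Aurkb, a kinase of the chromosomal passenger complex, had responses of −0.24, not called, and −1.25, called (difference −1.01, SE 0.32), and Birc5, which encodes survivin of the same complex, had 0.09 and −0.76, neither called (difference −0.85, SE 0.33). Top2a, the topoisomerase that untangles replicated DNA, had 0.16 and −0.58 (difference −0.74, SE 0.32, from −0.36 without p38α∆ array 3 to −1.24 without p38α∆ array 1), and Cdk1, the mitotic kinase, had 0.20 and −0.35 (difference −0.56, SE 0.24), none of them called. CDK inhibitors did not rise: of 24 inhibitors, D cyclins and Myc family genes, 6 fell and none rose in each genotype, with a median difference of −0.09. Cdkn1a, p21, fell by 0.58 and 1.02 (difference −0.44, SE 0.19), Cdkn1b, p27, by 0.68 and 0.91 (difference −0.23, interval −0.55 to 0.08), and Cdkn2b, p15, by 0.44 and 0.71 (difference −0.27, SE 0.17). Sesn1, a stress-induced inhibitor of mTORC1, had responses of −0.63, not called, and −1.63, called (difference −1.0, SE 0.32).

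Promoters of Uhrf1, Mcm10 and Top2a are shown because they are members of these lists with negative differences and hold the CCAAT box. That was the most frequent of the motifs searched in both lists. Capitals mark CCAAT boxes (CCAAT, the motif of NF-Y) on either strand and, in Uhrf1, also an E2F motif (GCGGGAA), read on the minus strand as TTCCCGC 48 bases before the start. The windows are chr17:56303087-56303386 on the plus strand for Uhrf1 (1 of 2 promoters in the table), chr2:5012742-5013041 on the minus strand for Mcm10 and chr11:99024140-99024439 on the minus strand for Top2a, all on GRCm38.p6 and printed in the direction of transcription.
Uhrf1: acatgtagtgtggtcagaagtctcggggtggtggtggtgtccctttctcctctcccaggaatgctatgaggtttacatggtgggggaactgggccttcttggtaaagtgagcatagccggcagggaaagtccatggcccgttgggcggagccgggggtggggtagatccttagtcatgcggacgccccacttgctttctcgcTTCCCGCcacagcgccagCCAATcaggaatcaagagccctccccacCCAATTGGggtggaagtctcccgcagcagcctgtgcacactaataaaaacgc
Mcm10: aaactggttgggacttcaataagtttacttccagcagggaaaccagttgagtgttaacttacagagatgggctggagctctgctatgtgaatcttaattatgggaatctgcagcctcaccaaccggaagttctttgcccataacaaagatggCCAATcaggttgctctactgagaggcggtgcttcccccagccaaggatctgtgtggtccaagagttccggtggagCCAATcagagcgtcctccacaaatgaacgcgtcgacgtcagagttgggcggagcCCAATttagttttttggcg
Top2a: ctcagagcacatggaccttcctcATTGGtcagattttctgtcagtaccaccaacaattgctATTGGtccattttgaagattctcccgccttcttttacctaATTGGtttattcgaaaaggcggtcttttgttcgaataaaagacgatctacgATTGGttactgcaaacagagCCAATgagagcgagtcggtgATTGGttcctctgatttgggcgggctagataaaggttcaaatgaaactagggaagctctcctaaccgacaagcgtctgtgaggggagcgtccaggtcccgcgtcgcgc
The CCAAT box was held by 19 of 27 promoters of the G1/S list (70.4%), 21 of 27 of the mitosis list (77.8%), and 37.4% of all promoters of the same length. It was also held by 18 of 27 promoters of the sterol and fatty acid list (66.7%), and by 10 of 27 of the collagen list (37%). The E2F motif was held by 11 of 27 promoters of the G1/S list (40.7%), by 0 of 27 of the mitosis list and by 4.6% of all promoters. These motifs are well known in cell cycle promoters and say nothing about what bound there in these cells.

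**Figure D4:**
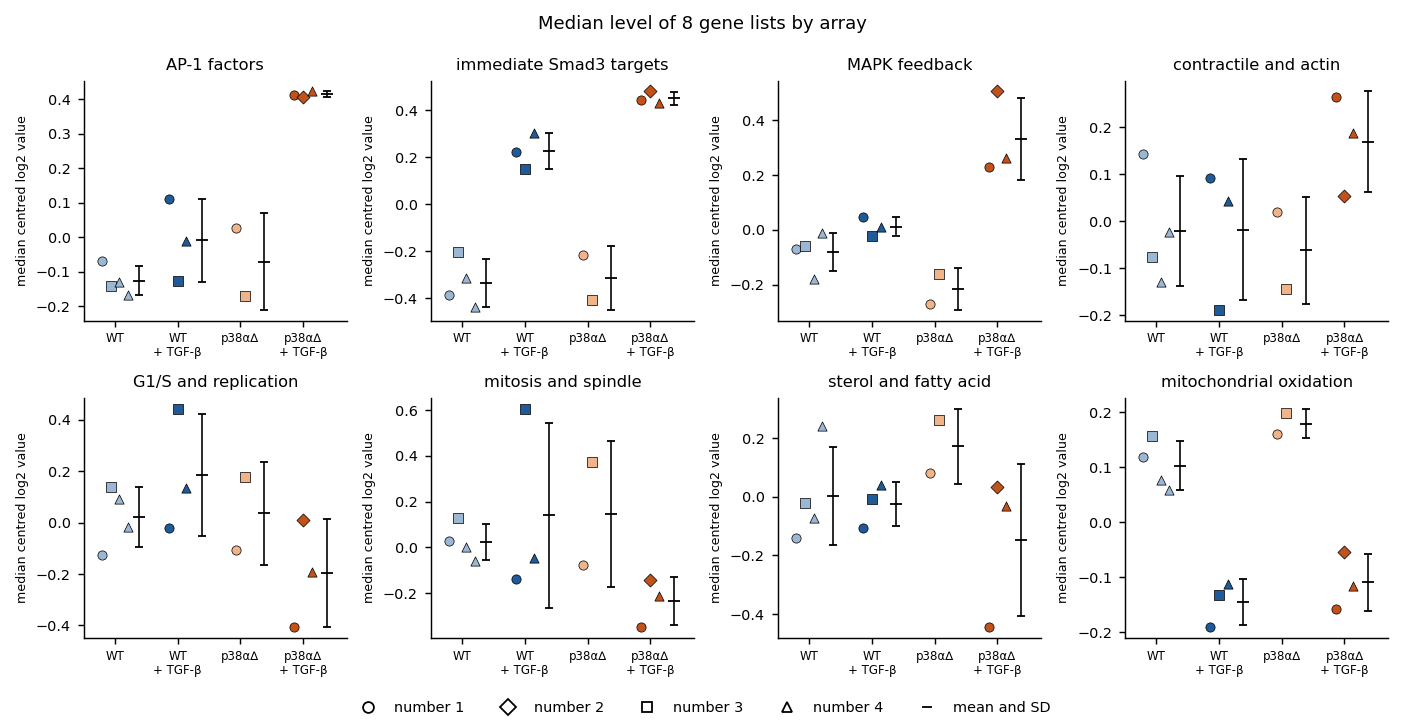
Each panel is a functional list and each point an array, placed by the median over the list of log2 values centred on the mean of the 12 arrays, with the 4 groups on the x axis, symbols for the array number, and a bar with whiskers for the mean and SD of the group. AP-1 factors are highest in the 3 TGF-β-treated p38α∆ arrays (0.41, 0.41 and 0.42), and G1/S and mitosis genes are highest in TGF-β-treated WT array 3 (0.44 and 0.61).

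Of 28 sterol and fatty acid synthesis genes, 1 had a difference above 0, and 6 passed, all negative, with a median of −0.34. The value was −0.55 within number 1 and −0.22 from numbers 3 and 4, and it was −0.15 without TGF-β-treated p38α∆ array 1, so a large part of it rests on that array. The median response was 0.03 in WT and −0.27 in p38α∆ MSCs. Between p38α∆ and WT, the median difference was 0.19 in untreated cells and −0.13 with TGF-β, so a higher untreated level in p38α∆ MSCs enters the value. Fdps, farnesyl diphosphate synthase of the cholesterol pathway, stood at 9.73, 9.49, 9.68 and 9.77 in WT, 9.55, 9.42 and 9.62 in treated WT, 9.79 and 9.80 in p38α∆, and 9.01, 9.48 and 9.25 in treated p38α∆ MSCs. The treated groups overlapped. Its responses were −0.12, not called, and −0.67, called (difference −0.55, SE 0.15). Scd1, the stearoyl-CoA desaturase, differed by −0.47 (SE 0.14), Fads2, a desaturase of polyunsaturated fatty acids, by −0.42 (SE 0.15), and Nsdhl, a sterol dehydrogenase, by −0.38 (SE 0.14). Dhcr7, the last enzyme of cholesterol synthesis, fell in both genotypes, by 0.50 and 0.57 (difference −0.08, interval −0.42 to 0.27).

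Txnip, an arrestin-like protein that lowers glucose uptake, stood at 9.51, 9.32, 9.23 and 9.22 in WT, 7.53, 8.01 and 7.77 in treated WT, 9.61 and 9.34 in p38α∆, and 6.86, 7.15 and 7.01 in treated p38α∆ MSCs. The untreated groups overlapped and the treated groups did not. It fell by 1.56 and 2.47 (difference −0.91, SE 0.20, unadjusted p = 0.000685, adjusted p = 0.548), with −0.78 within number 1 and −0.77 from numbers 3 and 4. Its relative Arrdc4 fell by 0.41 and 0.54 (difference −0.13, interval −0.50 to 0.23) at the probeset used, with a level of 3.9. The more highly expressed Arrdc4 probeset, with a level of 6.3, had responses of −0.41 and −0.05 (difference 0.36, SE 0.20), so Arrdc4 was not settled. Slc2a1, the glucose transporter GLUT1, rose by 0.67 and 1.03 (difference 0.35, SE 0.17). Another glucose transporter gene, Slc2a12, passed in the positive direction at a level of 4.0 (difference 0.53, SE 0.19). Of 31 glycolysis and hypoxia genes, 7 rose and 1 fell in each genotype and none passed in the difference, with a median of 0.07. Pfkm, a phosphofructokinase, fell by 0.55 and 0.53 (difference 0.02, interval −0.21 to 0.26), and Hk2, hexokinase, rose by 1.06 and 1.32 (difference 0.26, SE 0.18). Pfkl, the liver form of phosphofructokinase, rose by 0.67 and 0.60 (difference −0.07, interval −0.51 to 0.37) at the probeset used, with a level of 5.1. Its more highly expressed probesets, with levels of 11.01 and 10.75, had responses of 0.07 and 0.06, and of −0.08 and 0.06, so a rise of Pfkl was not settled.

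Of 28 genes of mitochondrial fatty acid and branched-chain oxidation, 8 fell in WT and 7 in p38α∆ MSCs and none rose in either, with median responses of −0.23 and −0.25 and a median difference of −0.03. Of the 10 that responded in the mean of both genotypes, 6 were bounded, against 50.3% of all responsive genes. Echs1, enoyl-CoA hydratase, fell by 0.53 and 0.53 (difference 0.00, interval −0.35 to 0.35), Acot2, a mitochondrial thioesterase, by 0.51 and 0.53 (difference −0.02, interval −0.28 to 0.25), and Cpt1a, which starts the import of fatty acids into mitochondria, by 0.59 and 0.53 (difference 0.06, interval −0.29 to 0.42). In this list 1 gene passed in each direction. The negative one was Cpt2, which completes that import. It stood at 6.26, 6.32, 6.46 and 6.38 in WT, 5.77, 5.78 and 5.81 in treated WT, 6.28 and 6.26 in p38α∆, and 5.28, 5.32 and 5.33 in treated p38α∆ MSCs. The treated groups lay apart, with falls of 0.56 and 0.99 (difference −0.44, SE 0.10, unadjusted p = 0.00102, adjusted p = 0.58). The positive one was Hadhb, a subunit of the trifunctional protein, at 0.43 (SE 0.19) with a level of 3.4, and its most highly expressed probeset, with a level of 7.6, differed by −0.06. Among adipogenic genes, of which 1 passed in the positive and 2 in the negative direction of 21, Zfp467, a zinc finger factor of adipocyte commitment, fell by 0.87 and 1.75 (difference −0.88, SE 0.19), and Lpin1, a phosphatidate phosphatase, had responses of −0.70, not called, and −1.80, called (difference −1.10, SE 0.34). The positive one was Cebpa, a factor of adipocyte differentiation (difference 0.38, SE 0.16).

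Matrix genes passed in small numbers and in both directions, beside 2.5% of all genes in the positive and 2.88% in the negative direction. Of 31 collagen chain genes, 6 rose in WT and 5 in p38α∆ MSCs and none fell. The median difference was −0.06, and 4 passed, all negative. Of the 7 that responded in the mean of both genotypes, 3 were bounded, 1 had a smaller response and 3 could not be placed. Col8a2 rose by 0.92 and 0.51 (difference −0.41, SE 0.15), a smaller response. Col3a1, the chain of type III collagen, differed by −0.78 (SE 0.30) at a probeset with a level of 6.5, while its most highly expressed probeset, at 12.1, differed by −0.07. Col5a1 rose by 0.48 and 0.32 (difference −0.16, interval −0.40 to 0.07). Col2a1, the chain of cartilage collagen, differed by −0.44 (SE 0.16). Col18a1, of basement membranes, differed by −0.41 (SE 0.18), while its other probeset, at about the same level, differed by 0.21. Of the 6 crosslinking and hydroxylation enzymes that responded, 5 were bounded, among them Plod2, a lysyl hydroxylase, with rises of 1.33 and 1.46 (difference 0.14, interval −0.27 to 0.55), and Loxl2, a lysyl oxidase, with 0.85 and 0.79 (difference −0.06, interval −0.56 to 0.44). Of all 19 measured enzymes of that list, 1 passed in the positive and 2 in the negative direction. Tgm2, the tissue transglutaminase, had responses of −0.02, not called, and 0.62, called (difference 0.64, SE 0.20, unadjusted p = 0.00767), and its second probeset differed by 0.74. Plod1, a lysyl hydroxylase, differed by −0.52 (SE 0.19) and P3h1, a prolyl hydroxylase, by −0.37 (SE 0.14), and their most highly expressed probesets by −0.15 and −0.18. Of 41 non-collagen glycoproteins and proteoglycans, 2 passed, both positive, and the median was 0.00. These were Has1, a hyaluronan synthase (difference 0.38, SE 0.14), and Mfap4, a microfibril protein with a level of 3.4 (0.45, SE 0.16). Of 18 integrins, Itgb4 differed by 0.32 (SE 0.14) and Itga9 by −0.58 (SE 0.21), or by −0.03 at its most highly expressed probeset.

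Adam12, a membrane metalloprotease, was among the most strongly induced genes and had a smaller response in p38α∆ MSCs. It stood at 4.47, 4.51, 4.33 and 4.63 in WT, 7.16, 7.70 and 7.76 in treated WT, 4.98 and 4.95 in p38α∆, and 6.39, 7.63 and 7.69 in treated p38α∆ MSCs. The treated groups overlapped and the untreated groups did not, with p38α∆ arrays higher. The rises were 3.10 and 2.10 (difference −0.99, SE 0.35), with −1.27 within number 1, −0.51 from numbers 3 and 4 and −0.44 without TGF-β-treated p38α∆ array 1, and another Adam12 probeset differed by −0.41. Of the 31 metalloproteinases, TIMPs and ADAMTS proteases, 3 passed, all negative, with a median of −0.07. Mmp13, a collagenase, fell by 0.91 and 1.74 (difference −0.83, SE 0.34), and Adamts9, a protease of proteoglycans, by 1.00 and 1.90 (difference −0.90, SE 0.37). Timp1, a metalloproteinase inhibitor, rose by 0.75 and 0.72 (difference −0.03, interval −0.47 to 0.40), and Adamts4, an aggrecanase, by 1.18 and 0.99 (difference −0.19, interval −0.57 to 0.19).

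Of 15 responding guidance genes of the semaphorin, ephrin and Slit families, 9 were bounded, against 50.3% of all responsive genes, among them Efnb1, a membrane-bound ephrin, with falls of 0.79 and 0.76 (difference 0.03, interval −0.29 to 0.35), and Unc5b, a netrin receptor, with rises of 0.65 and 0.54 (difference −0.11, interval −0.35 to 0.14). Of all 42 measured, 1 passed in each direction. Efna2, an ephrin, had responses of 0.27, not called, and 0.82, called (difference 0.55, SE 0.15), while its other probeset differed by 0.09, and Slit2, a ligand of Robo receptors, had 0.26 and −0.41, neither called (difference −0.67, SE 0.20). In the interferon response and antigen presentation list, 8 of 30 fell in WT and 6 in p38α∆ MSCs and none rose, with a median difference of 0.04 and 6 of 11 responding genes bounded. Irf1, an interferon-induced transcription factor, fell by 0.49 and 0.61 (difference −0.12, interval −0.41 to 0.16), and Tapbp, which loads peptides on MHC class I, by 0.47 and 0.48 (difference −0.01, interval −0.32 to 0.30). The 2 that passed were both positive, Irgm1, an interferon-induced GTPase (difference 0.65, SE 0.22), and Mx1, an antiviral GTPase with a level of 3.2 (0.31, SE 0.13). Of 7 responding Notch genes, 5 were bounded, such as Notch2, which rose by 0.57 and 0.61 (difference 0.05, interval −0.30 to 0.40), and Rbpj, the DNA-binding partner of Notch, which fell by 0.67 and 0.77 (difference −0.10, interval −0.35 to 0.16), while Lfng, a glycosyltransferase that modifies Notch, passed in the positive direction (difference 0.50, SE 0.18). The list of YAP, TAZ and TEAD with targets had a median of 0.00 and a mean of 0.12, and 3 of its 18 genes passed, all positive. These were Ccn1 and Ccn2, described above, and Ankrd1, an ankyrin repeat protein (difference 0.36, SE 0.15). Tead2 fell by 0.50 and 0.48 (difference 0.02, interval −0.25 to 0.29). Chemokines and inflammatory mediators could not be placed: none of 26 passed, 19 lay above 0, the median was 0.16, and 8 of 9 responding genes had an interval that was too wide. Cxcl12, the ligand of Cxcr4, fell by 1.00 and 0.80 (difference 0.20, interval −0.27 to 0.68) at the probeset used, and its most highly expressed probeset differed by 0.33 (unadjusted p = 0.0135). In the lists of the IL-6 family, complement and the unfolded protein response, 1 gene each passed, all positive, Il6ra, an IL-6 receptor subunit (0.54, SE 0.22), C1qtnf1 (0.33, SE 0.14), and Pdia4, a disulfide isomerase (0.51, SE 0.21). The most highly expressed probesets of Il6ra and C1qtnf1 differed by 0.17 and −0.03.

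Of 25 osteoblast and chondrocyte genes, 9 rose in WT and 5 in p38α∆ MSCs, 2 passed an unadjusted p of 0.05 in each direction, and the median difference was 0.00. Sox9, the master factor of chondrocytes, rose by 0.59 and 0.99 (difference 0.40, SE 0.17), whereas Sox6, its cofactor, rose by 0.95 in WT and had a response of 0.20, not called, in p38α∆ MSCs (difference −0.75, SE 0.28). The Sox6 value was −0.46 without TGF-β-treated p38α∆ array 1, and both other Sox6 probesets, at about the same level, differed by −0.19 and −0.17. The other gene in the positive direction was Sox5, a second cofactor (0.42, SE 0.16), and the other in the negative direction was Col2a1. Scx, a factor of tendon progenitors, rose by 0.60 and 0.74 (difference 0.15, interval −0.16 to 0.46). Of 26 Wnt ligands and secreted regulators, 3 passed, all negative, with a median of 0.07. Rspo2 and Rspo3, which encode R-spondins that amplify Wnt signals, had responses of −0.58 and −0.14 in WT, neither called, and fell by 1.38 and 0.78 in p38α∆ MSCs (differences −0.80, SE 0.34, and −0.63, SE 0.26). The third was Wnt10a (−0.47, SE 0.17), which was −0.17 without p38α∆ array 1. Wnt7b rose by 0.69 and 0.77 (difference 0.08, interval −0.28 to 0.44) at the probeset used, with a level of 4.6. Its more highly expressed probeset, with a level of 5.2, differed by −0.29 (SE 0.14). Of 17 clock genes, 11 lay below 0 and the median was −0.11, with 1 passing in each direction. Nfil3, a leucine zipper repressor, was the positive one (responses 0.14, not called, and 0.69, called, difference 0.56, SE 0.18). Nr1d2, a nuclear receptor that represses transcription, was the negative one (difference −0.69, SE 0.27), and its most highly expressed probeset differed by −0.11. Tef, a related activator, fell by 0.47 and 0.48 (difference −0.01, interval −0.32 to 0.30). Over all 47 lists, 6 had a median difference above 0.2 (CCN, AP-1, Smad3 targets, contractile, vessel-acting ligands and MAP kinase feedback), 3 had one below −0.2 (G1/S, sterol and fatty acid synthesis, mitosis), and the other 38 lay between −0.11 and 0.16. The 6 became 3 without WT array 1, without WT array 3 or without p38α∆ array 3.

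The strongest responses were, apart from those described, alike in size but with intervals that reached beyond 1.5-fold. Tnfaip6, a secreted hyaluronan-binding protein, rose by 2.41 and 2.63 (difference 0.22, interval −0.44 to 0.88). Nfatc1, a calcium-regulated transcription factor, rose by 2.28 and 2.44 (difference 0.15, interval −0.33 to 0.64). Dio3os, a long RNA antisense to a deiodinase gene, fell by 2.28 and 2.51 (difference −0.23, interval −0.78 to 0.32). Whether its probeset separates the strands is not given in the sources used here.

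Outside the lists, the genes with the smallest p among those with a mean log2 value of at least 5 included Pvr, the poliovirus receptor of the nectin-like family, which rose by 0.92 and 1.77 (difference 0.85, SE 0.15). Its values of 5.56, 5.39 and 5.50 in treated WT and 6.14, 6.36 and 6.35 in treated p38α∆ MSCs did not overlap. Rnf19b, a ubiquitin ligase, rose by 0.94 and 1.56 (difference 0.62, SE 0.13). Tmcc3, a transmembrane protein, had responses of −0.14, not called, and 1.10, called (difference 1.25, SE 0.27), Tmem151a differed by 0.63 (SE 0.13) and Fam53c by 0.53 (SE 0.11). Shb, an adaptor that couples receptor tyrosine kinases, had responses of 0.21, not called, and 0.96, called (difference 0.75, SE 0.15). In the negative direction, Ppp1r3c, which targets protein phosphatase 1 to glycogen, fell by 0.39 and 0.99 (difference −0.60, SE 0.12), and Abat, GABA transaminase, had responses of −0.10, not called, and −0.84, called (difference −0.74, SE 0.16). Zfp521, a zinc finger factor, had responses of −0.08, not called, and −0.84, called (difference −0.76, SE 0.18), and Btd, biotinidase, had −0.18, not called, and −0.90, called (difference −0.73, SE 0.17). Tlcd1 differed by −0.67 (SE 0.16), 5930403N24Rik by −0.60 (SE 0.11), Dnph1, a nucleotide hydrolase, by −0.60 (SE 0.13), and Dusp18, a phosphatase, by −0.57 (SE 0.14).

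The choice of probeset bears on these values. Of the 116 genes described with an unadjusted p under 0.05, 65 have several probesets, and in 26 of them another probeset was the most highly expressed. That probeset gave a difference over 1.5 times smaller, or of opposite sign, in 16 of the 26 and a similar or larger one in 10, among them Hbegf (1.26), Creb5 (1.06), Mcm10 (−0.77) and Pvr (0.75). The described genes that did not pass were not part of this count, and their likeness also rests on the probeset used. For all 116 genes the values within number 1 and from numbers 3 and 4 had the same sign as the fitted difference. Because the genes were chosen for a small p on these same arrays, that likeness is no sign of stability.

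**Figure D5:**
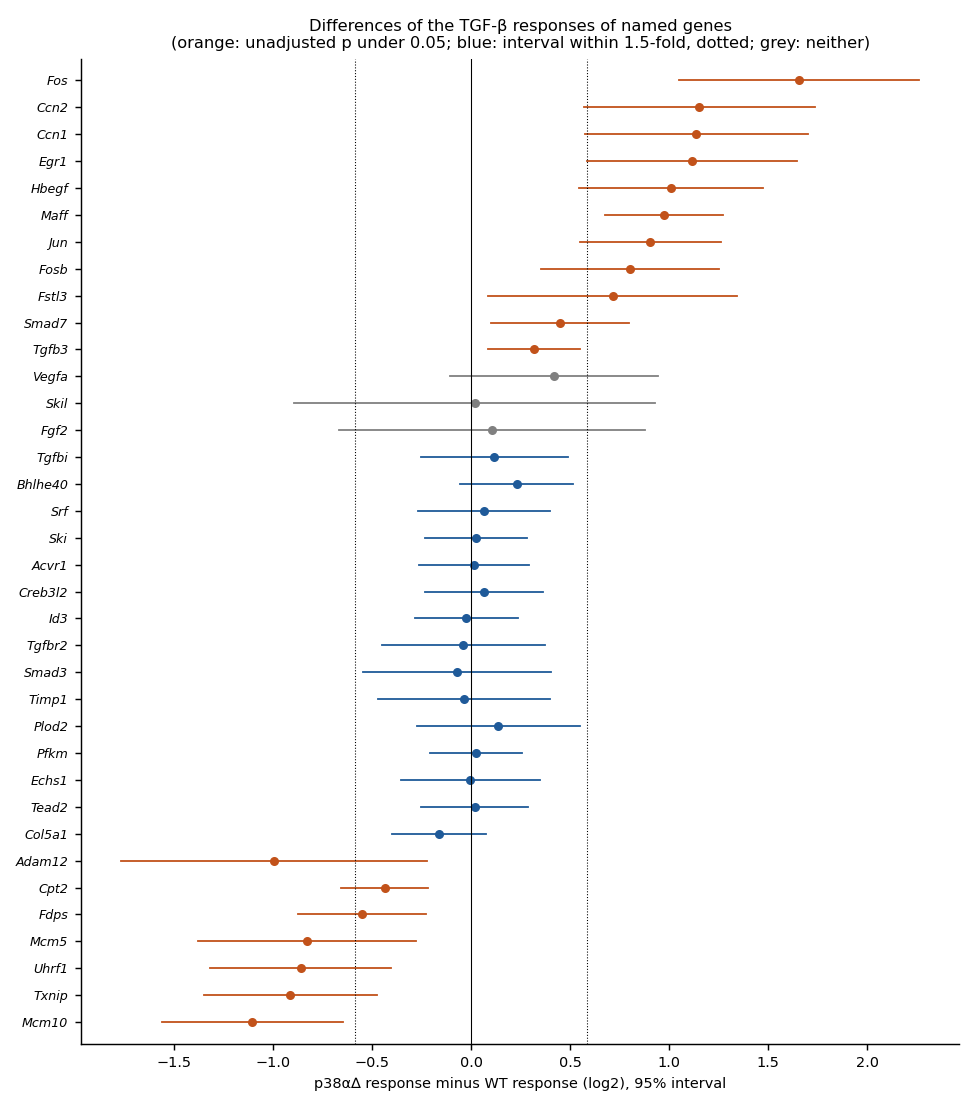
Points are the fitted genotype differences in the TGF-β response (log2) of 36 genes of the text, bars are 95% intervals from limma, colours mark an unadjusted p under 0.05 (orange) or an interval within 1.5-fold (blue), and dotted lines mark 1.5-fold in either direction. Fos has the highest difference shown (1.66) and Mcm10 the lowest (−1.11), and intervals such as those of Ski (−0.23 to 0.28) and Id3 (−0.28 to 0.24) lie between the dotted lines.

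The markers of other cell types lay low and are given here beside these results. Of 26 leukocyte genes, 2 passed, both positive, Itgam (0.35, SE 0.14) and Lcp1 (0.50, SE 0.22), at levels of 3.2 and 3.9. The median difference was 0.04 for the 8 endothelial markers (−0.09 to 0.29) and 0.17 for the 7 leukocyte markers (0.03 to 0.35), all of which had a mean level under 5, and it was 0.14 for the 6 epithelial markers (−0.13 to 0.47). For the 8 MSC and pericyte markers, 3 of which also had a mean level under 5, it was 0.12 (−0.57 to 0.97), with Mcam as the highest. Whether the share of a cell type or the RNA per cell changed cannot be told apart in bulk samples, and the part of such a change in the differences was not tested.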

How the data were processed

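Total RNA of 12 MSC samples was amplified and hybridized by the authors to Affymetrix MG-430 PM arrays. The deposited values are log2 values per probeset from RMA (background correction, normalization between arrays and summarization), credited to the submitters' processing notes and the methods of the study, with no version given in the sources used here. Intensities carry no counts, so the number of arrays limits the precision. Arrays were grouped by their titles.

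Of 45101 probesets, 64 controls were left out and 28898 had 1 gene symbol in the platform annotation (551 had several and 15588 none). For each of 17097 symbols, the probeset that varied most across the 12 arrays, by its median absolute deviation, was kept. A model of 4 group means was fitted in limma 3.58.1 (R 4.3.3, statmod 1.5.0) with the title number as a random block (array 4b counted as number 4, duplicateCorrelation, estimated correlation 0.52) and moderated variances. Tests were two-sided, and p-values were adjusted by Benjamini-Hochberg over all genes. The numbers were taken to pair arrays because same-numbered arrays had a median correlation of 0.72 in 14 pairs. Those pairs had 0.69 to 0.86 for numbers 1 and 3, but 0.07 to 0.36 for number 4. Without the 4 arrays numbered 1, the estimated correlation of the block was 0.11. A gene was called raised or lowered at an adjusted p under 0.05. Intervals are 95% intervals of the fit. The script was tested on simulated data.

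The named genes follow a rule: 7 set genes, the 12 with the smallest p in each direction at a mean log2 value of at least 5, up to 4 members of each of 47 gene lists with the smallest p under 0.05 and up to 3 with the narrowest interval among those called in both responses, and the 8 strongest responses. Of the 211 genes so chosen, 173 are described, among them all 115 with an unadjusted p under 0.05. The other 38, chosen by the rule for like or strong responses, were left out after their values were seen. The members and lists were chosen with earlier results of these data known. Promoters are from RefSeq. The 22 alternatives tried are given in the closing section.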

Additional observations from a re-analysis of the deposited data

Results flagged for a closer look

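In the WT group, the only one with 4 arrays, a value was marked where 1 array lay so far from the other 3 that its gap, divided by the range of the group, exceeded Dixon's 95% critical value. Chance marks about 1 in 20 groups, and 13 of the 174 genes described and 6 of the 47 lists were marked. WT array 1 was the distant one for Ccn4 (ratio 0.898), Dusp6 (0.922), F3 (0.874), Pdgfc (0.860), Rspo2 (0.831), Rspo3 (0.843), Scd1 (0.919), Skil (0.926) and Tgm2 (0.932). WT array 3 was distant for Acot2 (0.882) and Fgf2 (0.892), and array 4b for Ccn5 (0.861) and Cxcl12 (0.853). Among the list medians, array 1 was distant for Notch genes (0.905), osteoblast and chondrocyte genes (0.922), glycolysis and hypoxia genes (0.876), Txnip relatives and glucose transporters (0.972) and leukocyte genes (0.8291), and array 3 for the p38 module (0.931).

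No gene passed the test of the difference between genotypes at an adjusted p of 0.05 in limma, and 919 passed at an unadjusted p of 0.05.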

How the results depend on the processing

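None of the 116 described genes with an unadjusted p under 0.05 passed an adjusted p of 0.05 under any of 22 alternatives. Since they were chosen for that p on these arrays, a kept sign is no sign of stability. In 4 of 2758 values, which include those within number 1 and from numbers 3 and 4, the sign turned. It turned for Lcp1 without the 4 arrays numbered 1 (−0.00758). With the most highly expressed probeset, it turned for C1qtnf1 (−0.0288), Egfr (0.21) and Hadhb (−0.0578). The numbers of genes moved more, and the cause was not tested. Without a replicate block, 144 genes had a more positive and 114 a more negative response in p38α∆ MSCs, 295 were raised and 298 lowered in WT, 322 and 303 in p38α∆ MSCs, and 101 responded more, 12 less and 568 within 1.5-fold. With the replicate block as a fixed term, 853 were more negative. Without the 4 arrays numbered 1, 925 were more positive, 762 more negative, 581 responded more and 934 were within 1.5-fold. Over all probesets, which are more features, 3 passed an adjusted p of 0.05, 1051 were more positive and 1173 more negative, 1326 were raised and 1378 lowered in WT, 1095 were raised in p38α∆ MSCs, and 627 responded more, 79 less and 2833 within 1.5-fold. Among genes with a mean log2 value of at least 5, which are fewer, 191 and 289 passed in the positive and negative direction. With array weights, whose estimation gave a convergence warning, 996 and 1139 passed, 2855 were raised and 3392 lowered in WT, 504 were lowered in p38α∆ MSCs, 517 responded more and 69 less, and 1 list had a median below −0.2.

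When each array was left out in turn, no gene passed an adjusted p of 0.05 for the difference. More positive genes numbered 293 (without WT array 3) to 613, and more negative ones 365 to 576. In WT MSCs 498 (without treated array 3) to 848 genes were raised and 516 (without treated array 1) to 1058 lowered, and in p38α∆ MSCs 331 (without untreated array 3) to 658 and 399 (without untreated array 1) to 952. Of responsive genes, 212 (without WT array 3) to 367 responded more, 25 (without untreated p38α∆ array 1) to 57 less, and 562 (without the same array) to 1455 were within 1.5-fold. Leaving out 1 array moved the difference by over 1.5 times for 30 of the 116 genes. Beside those given above, these were, without treated p38α∆ array 1, Ankrd1 (0.24), Bmp4 (−0.20), Col3a1 (−0.43), Fads2 (−0.25), Mcm5 (−0.50), Mknk1 (−0.25), Nsdhl (−0.19), Slc2a12 (0.29) and Synpo2 (0.23), and without treated p38α∆ array 4, Fstl3 (0.47). Without p38α∆ array 1 they were Has1 (0.18), Lcp1 (0.25), P3h1 (−0.21) and Plod1 (−0.30), and without p38α∆ array 3, Adamts9 (−0.59), Itgb4 (0.20), Mapk8ip3 (0.40), Mmp13 (−0.52) and Pdia4 (0.31). Without p38α∆ array 1 and array 3, in turn, C1qtnf1 had 0.50 and 0.19, Calcrl −0.73 and −0.27, Nr1d2 −1.05 and −0.40, and Acta2 0.18 and 0.83. Cdkn1a had −0.21 without treated WT array 4. Lists with a median above 0.2 numbered 3 to 8, and below −0.2, 2 to 3.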
